A study of Mus musculus with 6 samples.

Results

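Receptor chains and ligands of the gp130 and GM-CSF cytokine systems were examined in natural killer (NK) cells from mouse spleen, sorted by surface CD117, which is the product of Kit and a receptor tyrosine kinase. The 10 genes were chosen by symbol, with all probes that GEO's platform annotation assigns to them. They were the gp130 family receptor chains Osmr, Lifr, Il6st, Il6ra and Il27ra, the ligands Osm and Lif, and the GM-CSF receptor chains Csf2ra, Csf2rb and Csf2rb2. All 10 of these genes were among the 17626 with a named probe, and together they had 22 of the 45988 probes. Both groups were CD3-negative, NK1.1-positive cells of female C57Bl/6 mice aged 7 weeks, and they differed in CD117, which the Kit+ cells carried and the Kit- cells lacked. The labels give an NK cell purity of around 98%. Sorting was repeated to give 3 sorts, per the study's design text, and the titles number the samples of each group from 1 to 3. Mice came from 2 suppliers, and how many went into a sort is not given in the sources used here. Each of the 6 samples was read on a one-colour Illumina bead array, so that 3 Kit+ arrays were set against 3 Kit- arrays.

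Cytokines of the IL-6 family signal through receptors that share the gp130 chain, which Il6st encodes. Further chains, some of them shared between receptors, take part in binding: Il6ra binds IL-6, Lifr binds LIF, Osmr binds oncostatin M, and Il27ra binds IL-27. GM-CSF is bound by the alpha chain encoded by Csf2ra, which signals through the common beta chain of Csf2rb, also used by IL-3 and IL-5. Csf2rb2 is a mouse gene closely related to Csf2rb whose product serves IL-3. Both systems act through Janus kinases and STAT transcription factors. IL-27 acts on NK and T cells, while the GM-CSF receptor is best known from myeloid cells.

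The median raw signal lay between 68.9 and 130 on the 6 arrays. The background level of an array was the 95th percentile of its 1178 probes for odorant and pheromone receptors, which ranged from 6.58 to 7.23 in normalized log2 intensity. It was highest on Kit- 2, where 15.1% of all probes exceeded it, against 18.7% to 29.8% on the other arrays. Kit, the gene behind the sort, was higher in Kit+, with a log2 difference of 2.83 (SE 0.43, limma adjusted p = 0.031, n = 3 per group), which checks the labels. Its transcript signal also exceeded background on 3 of 3 Kit- arrays, at 7.73, 8.79 and 8.5. Of 12 NK cell marker genes, 11 exceeded background on every Kit- array and 10 on every Kit+ array, and Gzmb was below it on all 6. Of 11743 tested genes, 62 were higher (0.528%) and 85 lower (0.724%) in Kit+ at a limma adjusted p under 0.05. With the number in the sample titles as a block, 453 were higher (3.86%) and 515 lower (4.39%). In bulk samples such as these, fewer cells of a type and less RNA per cell cannot be told apart.

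Of the 10 genes, 4 had a probe above background on any array: Osmr, Il27ra, Osm and Csf2ra. Csf2ra was above it on all 6 arrays. Osmr exceeded it on 3 of 3 Kit+ arrays and 0 of 3 Kit- arrays, and Il27ra on 0 of 3 Kit+ arrays and 3 of 3 Kit- arrays. Osm was above background on 2 of 3 arrays in each group. Lifr, Il6st, Il6ra, Lif, Csf2rb and Csf2rb2 had no probe above the level of their array on any of the 6 arrays. The same 4 genes came out on the deposited value table and on the raw signal, each set against its own receptor probe level.

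**Figure D1:**
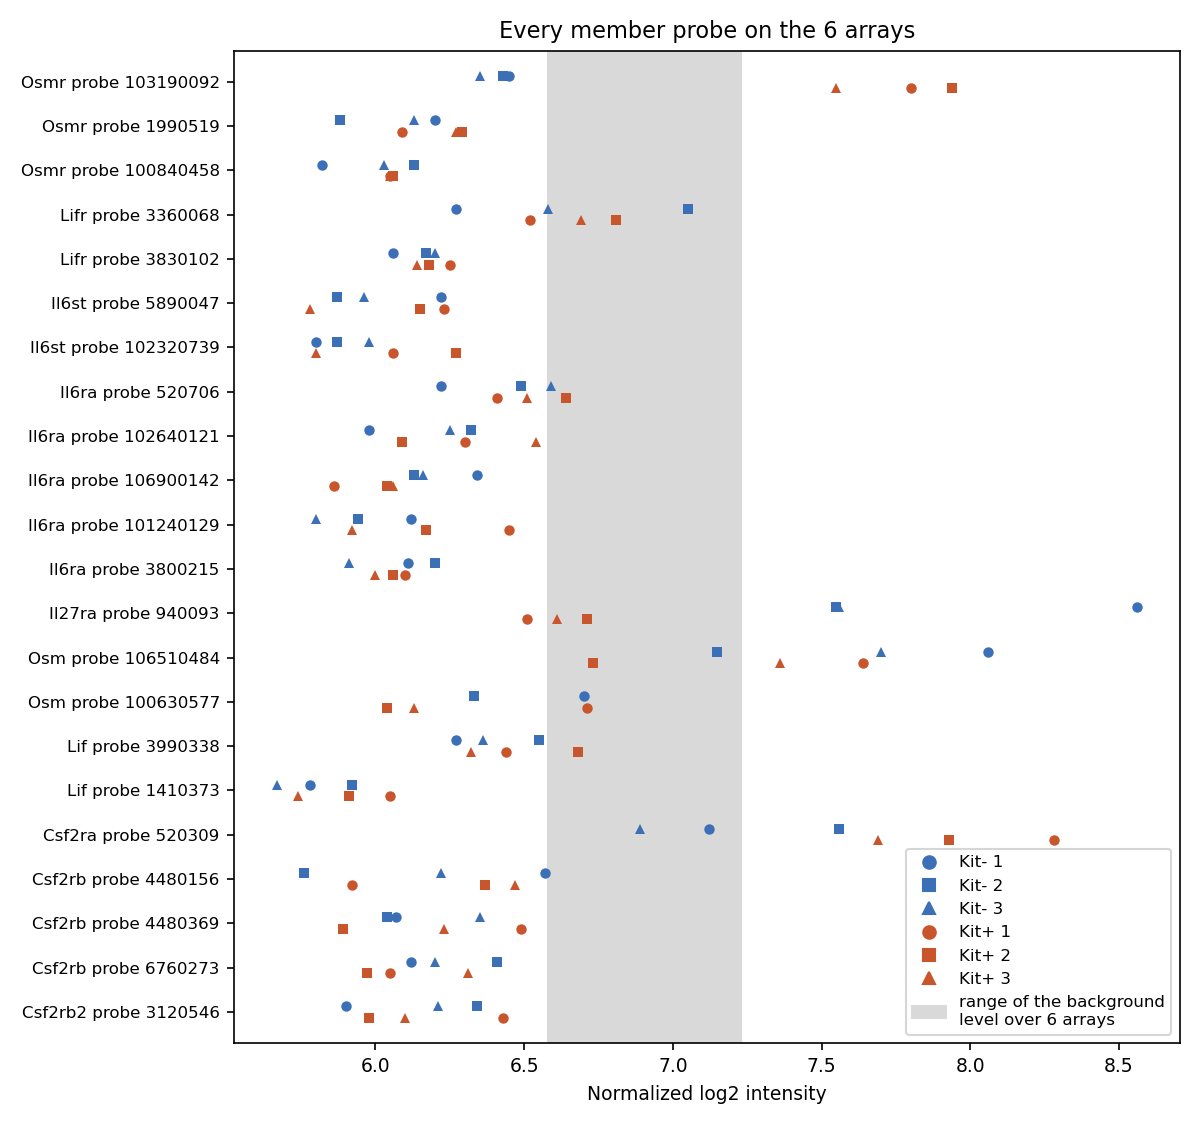
Normalized log2 intensity of the 22 probes (rows) on the 6 arrays, with Kit- in blue and Kit+ in orange, the symbol giving the number in the title. The grey band spans the background levels of the arrays, 6.58 to 7.23, and each probe was judged against its own array. Osmr probe 103190092, Il27ra, Osm probe 106510484 and Csf2ra have values right of the band, the Kit- values of Osmr lie left of it, and the Kit+ values of Il27ra lie left of it or inside it.

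Among the 7 of these genes bright enough on average to be tested, 1 rose in Kit+ and none fell (limma adjusted p under 0.05; 3 of 7 at an unadjusted p under 0.05), where 0.528% and 0.724% of all tested genes were called higher and lower. With the replicate block, 2 were higher and 1 lower, beside 3.86% and 4.39% of all tested genes. The median log2 difference of the 7 was 0.08, and that of all tested genes 0.03. Groups did not overlap for 3 of the 7, as for 17.9% of all tested genes. Kit+ lay above Kit- for 2 of them (10% of all tested genes) and below for 1 (7.9%). A gene was tested where its mean over the 6 arrays was above the median of all probes, so these counts say nothing of Il6st, Csf2rb and Csf2rb2.

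Osmr, the oncostatin M receptor chain, rose in Kit+ by the probe that represents it, number 103190092. Its normalized log2 intensity was 6.45, 6.43 and 6.35 on Kit- 1, 2 and 3, and 7.80, 7.94 and 7.55 on Kit+ 1, 2 and 3. All Kit+ arrays were above all Kit- arrays, and each Kit- value was below its array's background level. The means were 6.41 ± 0.05 and 7.76 ± 0.20 (SD, n = 3 each), a log2 difference of 1.35 (SE 0.18, 95% interval 0.93 to 1.77, limma adjusted p = 0.0205). Because the Kit- arrays give a bound, the signal was at least 1.91-fold higher in Kit+, taking the background level of each Kit- array as its value. With the replicate block the limma adjusted p was 0.00262.

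On the deposited value table, which is linear, the same Osmr probe read 100, 99.2 and 94.0 in Kit- and 263, 291 and 217 in Kit+. The raw signal read 145, 105 and 69.7 in Kit- and 371, 189 and 141 in Kit+. Raw values of the groups overlapped, since Kit- 1 lay just above Kit+ 3, but the Kit+ array was the brighter one within each number, by 2.56, 1.81 and 2.02 times. Raw signal is not scaled between arrays, also not within a number: the raw median was 130 on Kit- 1 and 84.4 on Kit+ 1. In limma fits with a single array left out, the log2 difference lay between 1.26 and 1.46. The adjusted p was 0.0486 without Kit- 1, 0.0618 without Kit- 2, 0.103 without Kit- 3, and 0.0758, 0.0958 and 0.076 without Kit+ 1, 2 and 3.

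Osmr had 2 further probes, and neither followed the first. Probe 1990519, the one of the 3 listed under the RefSeq messenger RNA, read 6.20, 5.88 and 6.13 in Kit- and 6.09, 6.29 and 6.27 in Kit+. It was below background on all 6 arrays, and its log2 difference was 0.15 (SE 0.14, 95% interval -0.18 to 0.48, limma adjusted p = 1 over all 45988 probes, of which 0.648% were called without the block and 3.39% with it). Probe 100840458, listed like the first under a cDNA clone, read 5.82 to 6.13 in Kit- and 6.05 to 6.06 in Kit+, also below background throughout. The rise of Osmr therefore rests on a single probe, whose annotation names a clone and not the RefSeq transcript.

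Csf2ra, the GM-CSF receptor alpha chain, was measured by 1 probe, listed under the RefSeq transcript. Its normalized log2 intensity was 7.12, 7.56 and 6.89 on Kit- 1, 2 and 3, and 8.28, 7.93 and 7.69 on Kit+ 1, 2 and 3. The groups did not overlap, and the Kit+ array was brighter within each number, by 1.16, 0.36 and 0.80 on the log2 scale. The means were 7.19 ± 0.34 and 7.97 ± 0.29 (SD, n = 3 each), a log2 difference of 0.77, or 1.71-fold (SE 0.25, 95% interval 0.21 to 1.34). This did not pass without the block (limma adjusted p = 0.21), and it passed narrowly with the replicate block (limma adjusted p = 0.0449). With both arrays of a number left out of the blocked fit, the limma adjusted p was 0.217 without number 1, 0.081 without number 2 and 0.0819 without number 3. Without number 1 the SE was 0.27 for Csf2ra, Osmr, Lifr and Kit alike. Such p-values rest mostly on a variance shared over genes, and little on the spread of a gene itself.

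The raw signal of Csf2ra read 276, 150 and 100 in Kit- and 581, 187 and 155 in Kit+. Raw values of the groups overlapped, since Kit- 1 lay above Kit+ 2 and Kit+ 3. Within numbers 1, 2 and 3 the Kit+ array was 2.10, 1.25 and 1.54 times as bright. The value table read 159, 220 and 135 in Kit- and 374, 288 and 243 in Kit+, with no overlap, as the plot of differences within each number on 3 scales shows. On the value table with the replicate block the limma adjusted p was 0.0524.

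**Figure D2:**
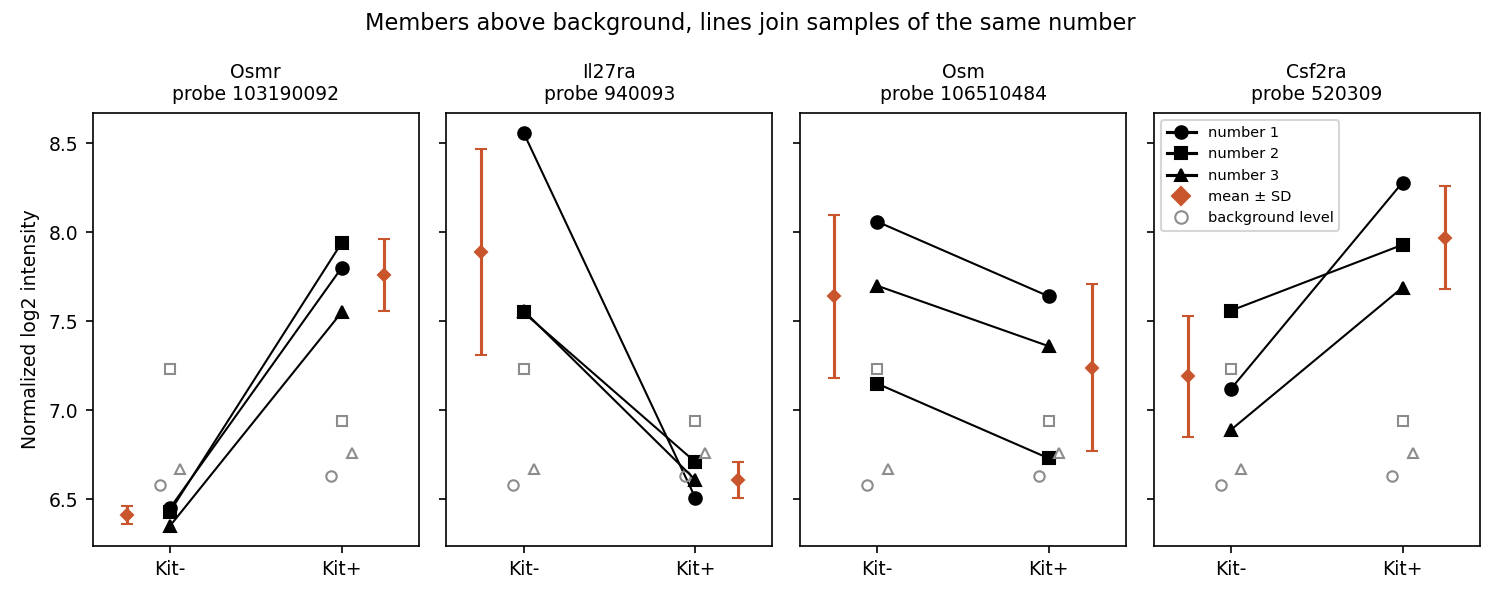
Normalized log2 intensity of the 4 genes with a probe above background, in Kit- and Kit+. Black lines join arrays of the same number, orange diamonds give the mean ± SD (n = 3), and open grey symbols the background level of each array. The lines of Osmr and Csf2ra slope up and those of Il27ra and Osm slope down in each number, and the Osm groups overlap.

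Osmr and Csf2ra are the members whose Kit+ arrays all lay above their Kit- arrays, and the 250 bases before their transcription starts are shown for that reason (RefSeq, GRCm38.p6). For Osmr this held for 1 of its 3 probes, listed under a cDNA clone, and whether that probe reads transcripts from this start was not checked. The Osmr window is chr15:6874314-6874563 and the Csf2ra window chr19:61228419-61228668, both on the minus strand. Capitals mark GAGGAA, an ETS family core found in PU.1 sites, searched on both strands.
Osmr: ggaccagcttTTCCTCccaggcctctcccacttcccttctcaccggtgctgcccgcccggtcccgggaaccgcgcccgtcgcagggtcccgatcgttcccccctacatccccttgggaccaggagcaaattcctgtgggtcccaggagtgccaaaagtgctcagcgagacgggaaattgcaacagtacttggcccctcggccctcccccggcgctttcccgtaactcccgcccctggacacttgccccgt
Csf2ra: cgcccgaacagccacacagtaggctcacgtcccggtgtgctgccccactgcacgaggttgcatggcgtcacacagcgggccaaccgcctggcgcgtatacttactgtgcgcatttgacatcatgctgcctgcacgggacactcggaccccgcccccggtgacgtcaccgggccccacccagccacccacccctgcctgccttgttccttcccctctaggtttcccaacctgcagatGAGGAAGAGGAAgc
GAGGAA occurred once in the Osmr window, starting 240 bases before the start, and 2 times in the Csf2ra window, starting 14 and 8 bases before it, side by side without overlap. This hexamer was present in 23.3% of all 32851 windows of this length. The STAT motif TTCNNNGAA (7.02% of windows) and the AP-1 motif TGANTCA (6.75%) were in neither. Of the 10 genes, 7 have an entry in the promoter table.

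Marker sums of other cell types rose, fell or overlapped between the groups, depending on the list. Of 18 macrophage and monocyte markers, 15 were on the array and 12 were tested, and 4 of those rose without the block and 5 with it. Among them were the iron exporter Slc40a1, the adhesion molecule Vcam1 and the macrophage receptor Adgre1. Of the 12, 9 had differences above 0, with a median of 0.57. Below 0 were Cx3cr1 (-0.48, groups apart), Itgam (-0.36) and Mertk (-0.02). The summed normalized intensity of the 15 markers was 1490 to 1640 in Kit- and 3390 to 3810 in Kit+, while Cd14, Cd163 and Fcgr1 were below background on all 6 arrays. The sum over 9 neutrophil markers was 744 to 968 in Kit- and 1180 to 2920 in Kit+. None of 8 tested neutrophil markers passed without the block (limma), 4 were higher with it, and Ngp and Csf3r were below background throughout. For 12 dendritic cell markers the sum was 2480 to 4100 in Kit- and 4730 to 10900 in Kit+. Of 10 tested, 1 was higher without the block and 4 with it (limma). These 4 were Batf3, H2-Ab1, H2-Aa and Cd74, with log2 differences of 1.83, 1.75, 2.07 and 1.49. The median of the 10 was 0.16, with 2 below 0, and Flt3, Clec9a and Cd209a were below background. Fibroblast and endothelial markers, of interest because Osmr is abundant in such cells, summed to 1160 to 1390 in Kit- and 1520 to 1720 in Kit+. None of their 5 tested genes was called without the block (limma), and with it only Pecam1 was higher (log2 difference 0.90). The other 4 tested genes had differences below 0, and the median was -0.02. Col1a1, Col1a2, Col3a1, Cdh5 and Tek were below background on all 6 arrays. Markers of haematopoietic progenitors summed to 830 to 885 in Kit- and 1100 to 1670 in Kit+, with none of 6 tested called without the block (limma), 3 higher with it, and Cd34, Mecom and Flt3 below background. The T cell marker sum was 1600, 2400 and 2860 in Kit- 1, 2 and 3 and 2570, 4010 and 4550 in Kit+ 1, 2 and 3, and the B cell marker sum 532, 645 and 786 against 678, 745 and 1540. Both were larger in the Kit+ array of each number while the groups overlapped. Of these lists, no gene passed without the block (limma), and with it Cd3d (adjusted p = 0.0034) and Cd79b (0.0143) were higher, while Cd4, Cd8a, Cd5, Pax5 and Ebf1 were below background throughout. Of 7 tested T cell markers, 4 had differences above 0 and 3 below. Among the latter was Cd3e (-0.81), which was above background on all 6 arrays. Of 6 tested B cell markers, 5 were above 0 and 1 below. Erythroid marker sums overlapped, at 1060 to 2310 and 2050 to 4130, with none of 6 called in either limma fit. Mast cell, basophil and eosinophil markers summed to 1610 to 2220 in Kit- and 1100 to 1410 in Kit+. Of their 6 tested genes Cma1 fell (log2 difference -2.18), Prg2 stood at 0.91 without passing, 3 were above 0 and the median was 0. Cpa3, Fcer1a, Tpsb2, Epx, Siglecf and Il5ra were below background on all 6 arrays. The part of these cell types in the Osmr and Csf2ra values was not tested.

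Il27ra, the private chain of the IL-27 receptor, was dimmer in Kit+. Its 1 probe, listed under the RefSeq transcript, read 8.56, 7.55 and 7.56 on Kit- 1, 2 and 3, and 6.51, 6.71 and 6.61 on Kit+ 1, 2 and 3. All Kit+ arrays lay below all Kit- arrays and below their own background levels. The means were 7.89 ± 0.58 and 6.61 ± 0.10 (SD, n = 3 each), a log2 difference of -1.28 (SE 0.29, 95% interval -1.95 to -0.61). The adjusted p was 0.0948 without the block and 0.0152 with the replicate block (limma). With the Kit+ arrays at their background level, the signal was at least 2.16-fold lower in Kit+.

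Raw Il27ra signal was 904, 150 and 169 in Kit- and 96.7, 118 and 85.8 in Kit+, so the groups were apart on this scale too, as they were for 3.35% of all probes. Kit- 1 stood far above the other Kit- arrays. The raw 99th percentile of all probes was 6370 on that array, against 1030 and 1950 on Kit- 2 and 3. It was 4850 on Kit+ 1, and 1360 and 1520 on Kit+ 2 and 3. Within numbers the Kit+ array had 0.107, 0.788 and 0.509 times the raw signal of its Kit- array. Leaving out Kit- 1 gave a log2 difference of -0.94 (limma adjusted p = 0.0964). In the blocked limma fit, the difference was -0.90 without number 1 (adjusted p = 0.0161), -1.50 without number 2 (0.0792) and -1.45 without number 3 (0.00129). As for Csf2ra, p-values of fits without a number say little of the gene's own spread. Of 11 tested NK cell markers, 6 had differences below 0 and 5 above, with a median of -0.20. Without the block 2 fell, the pore protein gene Prf1 (-3.18) and the T-box factor gene Eomes (-0.95), and none rose (limma). With the replicate block 4 were lower and 1 higher, Cd160, a receptor of NK cells (log2 difference 1.11, blocked limma adjusted p = 0.00665). The summed NK marker intensity was 45100 to 49200 in Kit- and 34300 to 46400 in Kit+. The part of that shift in the Il27ra values was not tested.

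**Figure D3:**
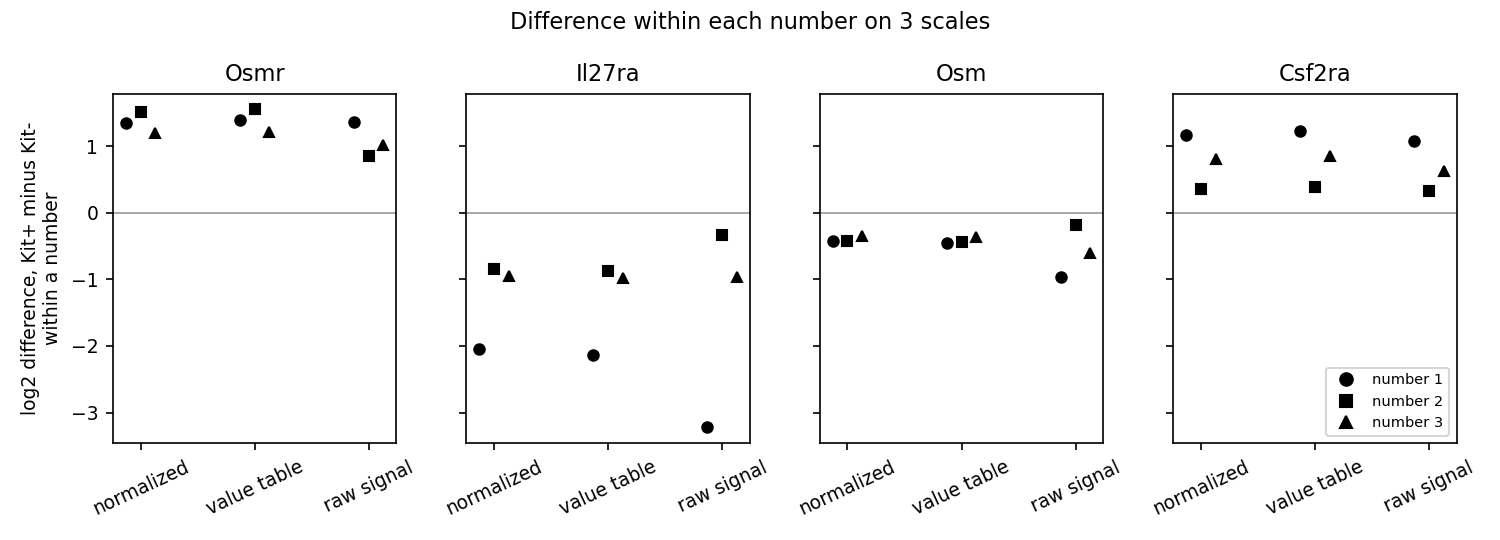
Kit+ minus Kit- on the log2 scale within each number, for normalized intensity, the deposited value table and raw signal. Osmr and Csf2ra lie above 0 and Il27ra and Osm below 0 for every number on each scale, and the Il27ra difference of number 1 reaches -3.22 on the raw scale.

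The remaining gp130 chains gave no signal above background. Il6st, which encodes gp130 itself, had 2 probes, which read 5.80 to 6.22 in Kit- and 5.78 to 6.27 in Kit+. Their log2 differences were 0.04 (95% interval -0.36 to 0.43) and 0.16 (95% interval -0.20 to 0.52). Lifr, the LIF receptor chain, read 6.27, 7.05 and 6.58 in Kit- and 6.52, 6.81 and 6.69 in Kit+ on the brighter of 2 probes. The Kit- 2 value of 7.05 still lay under that array's level of 7.23. The log2 difference of Lifr was 0.04 (SE 0.24, 95% interval -0.51 to 0.59, limma adjusted p = 0.985). Il6ra, the IL-6 binding chain, had 5 probes, and the brightest gave a log2 difference of 0.08 (SE 0.19, 95% interval -0.35 to 0.52, limma adjusted p = 0.962). One other Il6ra probe, number 106900142, had groups that did not overlap, at 6.13 to 6.34 in Kit- and 5.86 to 6.06 in Kit+. Its log2 difference was -0.22 (limma adjusted p = 0.888 over all probes), and groups did not overlap for 12.1% of all probes.

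Of the ligands, Osm, which encodes oncostatin M, was detected and Lif was not. The brighter Osm probe, number 106510484, read 8.06, 7.15 and 7.70 on Kit- 1, 2 and 3, and 7.64, 6.73 and 7.36 on Kit+ 1, 2 and 3. Number 2 was the dimmest in both groups and lay below background in both. The Kit+ array was dimmer in each number by a near equal step, with differences of -0.43, -0.42 and -0.35, while the groups overlapped. The log2 difference of Osm was -0.40 (SE 0.31, 95% interval -1.12 to 0.33), and it did not pass without the block (limma adjusted p = 0.744) or with it (0.193). All 3 numbers had the same direction, as they did for 41.6% of all tested genes. Raw Osm signal was 619, 136 and 188 in Kit- and 315, 119 and 124 in Kit+. The second Osm probe was above background on number 1 alone, at 6.70 in Kit- and 6.71 in Kit+.

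Lif, which encodes leukaemia inhibitory factor, had 2 probes below background on all 6 arrays. The brighter one read 6.27, 6.55 and 6.36 in Kit- and 6.44, 6.68 and 6.32 in Kit+. Its log2 difference was 0.08 (SE 0.19, 95% interval -0.35 to 0.52, limma adjusted p = 0.963).

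The beta chains of the GM-CSF receptor were likewise not detectable with these probes. Csf2rb had 3 probes, which read 5.76 to 6.57 in Kit- and 5.89 to 6.49 in Kit+. On Kit- 1 the probe 4480156 reached 6.57, just under that array's level of 6.58. The log2 differences of the 3 were 0.07, 0.05 and -0.13, with 95% intervals that together ran from -0.48 to 0.62. Csf2rb2 had 1 probe, at 5.90, 6.34 and 6.21 in Kit- and 6.43, 5.98 and 6.10 in Kit+, with a log2 difference of 0.02 (95% interval -0.39 to 0.43). The 2 genes are close copies, and a probe of one may also bind transcripts of the other. Across the 17 probes that never exceeded background, values lay between 5.67 and 7.05, and log2 differences between -0.22 and 0.23 (limma adjusted p of 0.888 to 1 over all probes). A probe at background sets no limit on the transcript, since probes differ in how well they bind.

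Csf2, which encodes GM-CSF itself, was the gene of the surrounding pathways that rose. Of 48 further ligands, receptor chains, kinases, adaptors, inhibitors and targets, 45 were on the array and 36 were tested. Of these 36, 1 rose and 1 fell in limma without the block, beside 1.25% of all tested genes, and with the replicate block 1 was higher and 5 lower, beside 8.24%. The median log2 difference of the 36 was -0.03. Csf2 read 7.33, 7.36 and 7.48 in Kit- and 9.0, 8.66 and 8.76 in Kit+, a log2 difference of 1.41 (SE 0.18, limma adjusted p = 0.0185). Its 1 probe was above background on all 6 arrays, so the cytokine and its alpha chain were both detected in both groups. In fits with a single array left out, the limma adjusted p of Csf2 lay between 0.0445 and 0.0829, and it passed without Kit- 1 but not without any of the other arrays.

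Tyk2, the Janus kinase used by the IL-27 and other receptors, was the pathway gene that fell. It read 8.91, 8.35 and 8.56 on Kit- 1, 2 and 3, and 6.38, 6.46 and 7.13 on Kit+ 1, 2 and 3, and the groups were well apart. The log2 difference was -1.95, or 3.86-fold (SE 0.26, limma adjusted p = 0.0201), and 3.27-fold with the Kit+ arrays that were below background, 2 of 3, set at that level. The second Tyk2 probe differed by -1.33 and exceeded background on 3 of 3 Kit- arrays and 0 of 3 Kit+ arrays. With an array left out the limma adjusted p of Tyk2 lay between 0.0444 and 0.0971, and again it passed without Kit- 1 alone.

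Of 6 tested kinases and STAT factors, 5 had differences below 0, with a median of -0.72, and 3 were lower with the replicate block. Stat3, the main STAT factor of gp130 receptors, had a log2 difference of -0.79 (SE 0.24, limma adjusted p = 0.191, blocked 0.0498), and its second probe -1.13. The blocked adjusted p of Stat3 was 0.063, 0.249 and 0.0102 without numbers 1, 2 and 3, and 0.0618 on the value table (limma). Jak1, the kinase most used by gp130, had one of -0.94 (SE 0.43, limma adjusted p = 0.41, blocked 0.0421), while its second kept probe stood at 0.08 and was above background on 1 of 6 arrays. For Jak1 those blocked limma values were 0.147, 0.215, 0.00257 and 0.0582. As for Csf2ra, p-values of fits without a number say little of a gene's own spread. Of 7 inhibitors, Pias3, an inhibitor of STAT3, was lower with the block (log2 difference -1.20, SE 0.38, limma adjusted p = 0.201, blocked 0.005). The blocked limma adjusted p of Pias3 was 0.00187, 0.0582 and 0.00161 without numbers 1, 2 and 3. The feedback inhibitor Socs3 had a difference of 0.12 (SE 0.20, limma adjusted p = 0.932). Of 9 tested STAT3 and STAT5 targets, the kinase gene Pim1 was lower with the block (log2 difference -1.19, limma adjusted p = 0.337, blocked 0.0426). Its blocked limma adjusted p was 0.0923, 0.0714 and 0.00976 without numbers 1, 2 and 3, and 0.0678 on the value table. It was above background on 2 of 3 Kit- and 0 of 3 Kit+ arrays.

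None of 6 tested receptor adaptors passed in either limma fit, and the smallest p among them was that of Sos1 (log2 difference 0.24, SE 0.17, limma adjusted p = 0.696). Probes of the adaptor gene Ptpn11 differed. The one that stood for the gene was at -0.07 and another at 0.14. A further kept probe, number 2230100, was at -0.88 (SE 0.22 over all probes). It was above background on 2 of 3 Kit- and 0 of 3 Kit+ arrays. Of the other gp130 family ligands 3 were tested and none passed in either limma fit. Il6 had a log2 difference of 0.36 (SE 0.17, limma adjusted p = 0.441) and was above background on 1 of 6 arrays. Both ligand chains of IL-27, Il27 and Ebi3, were below background on all 6 arrays, as was the Osmr partner chain Il31ra (log2 difference -0.15, SE 0.23, limma adjusted p = 0.927).

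**Figure D4:**
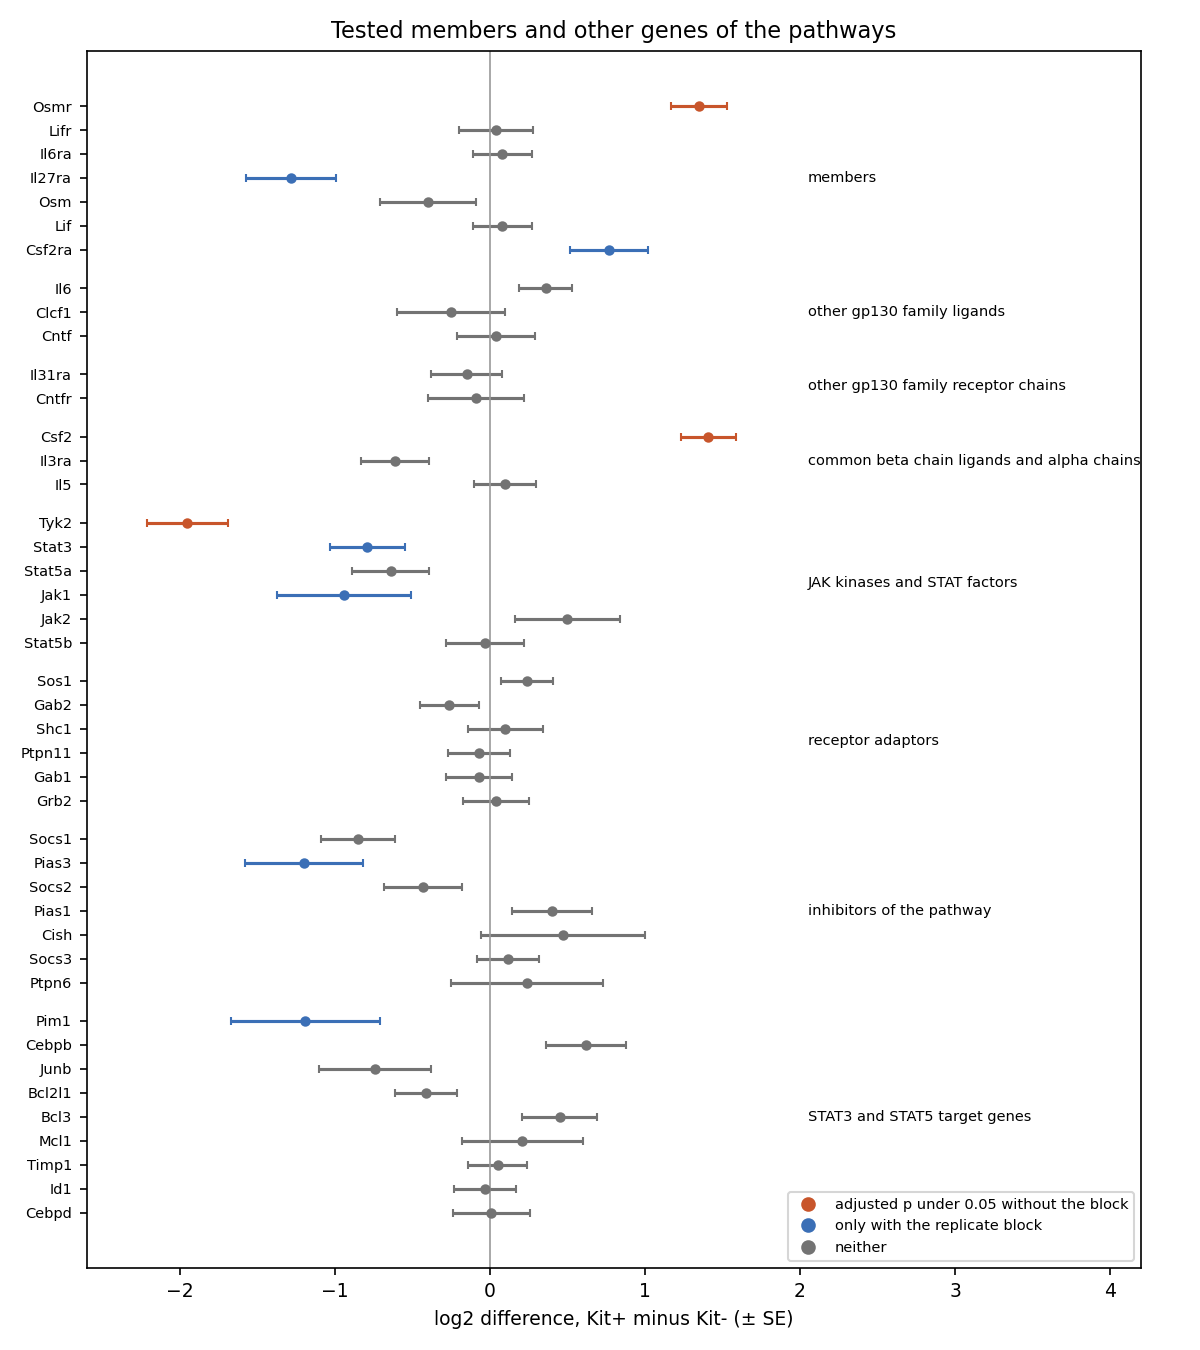
Log2 difference, Kit+ minus Kit-, with its SE from limma, for the 7 tested members and 36 other tested genes of the pathways, grouped by role. Orange marks an adjusted p under 0.05 without the block (Osmr, Csf2, Tyk2), blue marks genes that passed with the replicate block alone (Il27ra, Csf2ra, Stat3, Jak1, Pias3, Pim1), and grey the rest.

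For the 3 members that passed in either fit, the genes with the most similar course over the 6 arrays were found by the root mean square difference of their centred log2 values. Nearest to Osmr were Tgfbi, an extracellular matrix protein gene, Clec4a1, a C-type lectin gene, and Cd63, a tetraspanin gene, each at 0.13. All 3 were below background on the Kit- arrays and above it on the Kit+ arrays, with log2 differences of 1.18, 1.25 and 1.44 (limma adjusted p = 0.0213, 0.022 and 0.0185). Nearest to Il27ra were Chmp1a at 0.10, the cell cycle inhibitor gene Cdkn2d at 0.16 and Tsn at 0.19, with log2 differences of -1.44, -1.49 and -1.06. Nearest to Csf2ra were the adhesion receptor gene Adgre4 at 0.11, the DNA primase gene Prim1 at 0.14 and the zinc transporter gene Slc39a4 at 0.14, with log2 differences of 0.63, 0.59 and 0.59. Of the last 6 genes, the 3 near Il27ra passed with the replicate block in limma (adjusted p of 0.0111 to 0.0356) and the 3 near Csf2ra did not (0.117 to 0.133). With 6 arrays in 2 groups, many genes lie close to any such profile.

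**Figure D5:**
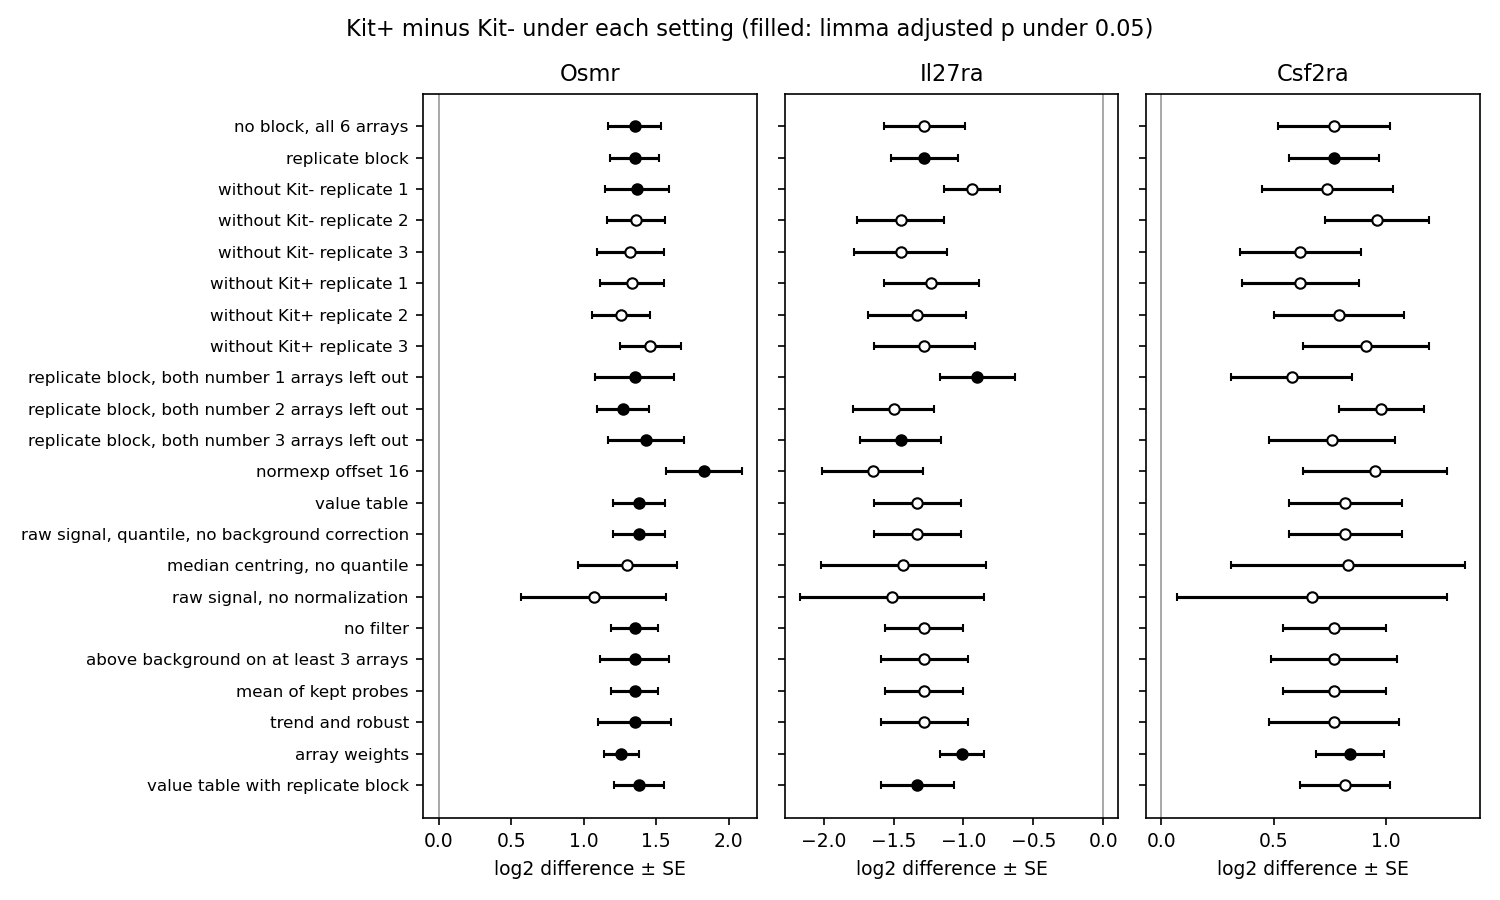
Log2 difference, Kit+ minus Kit-, with its SE for Osmr, Il27ra and Csf2ra under each processing setting (rows), filled where the limma adjusted p was under 0.05. The direction of all 3 held in all 21 alternatives, and the threshold was passed in 14 of them for Osmr, 5 for Il27ra and 2 for Csf2ra. The normalized groups of these genes did not overlap, so leaving out arrays could not reverse a direction. Nor could a change of block, filter or variance model alone. The value table and the quantile normalized raw signal are the same data, so the alternatives are not independent.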

How the data were processed

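The authors deposited raw probe intensity for each array, linear and, per the file headers, without detection p-values, and a series value table, also linear intensity. BeadStudio 3.1.1.0 is named in the submitters' processing notes. The value table matched a quantile normalization of the raw intensity without background correction (largest relative difference 0.000223, column median 92.78). It is linear, not centred, and has the direction of the raw signal. Here the raw intensity was corrected with normexp (offset 50, in place of neqc, which needs control probes or detection p-values), log2 transformed and then quantile normalized in limma 3.58.1 (R 4.3.3). The offset shrinks differences of dim probes. Of 45988 probes, 22994 with a mean above the median of all probes were kept, and the brightest kept probe stood for its gene, giving 11743 genes. Of 29457 probes with 1 symbol, 29399 were matched by gene ID to RefSeq (GRCm38.p6), while 11 probes had several symbols and were not used.

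Groups were compared with lmFit and eBayes without a block, with Benjamini-Hochberg adjustment across the tested genes. "Over all probes" means the same fit on all 45988. Arrays of the same number in the titles deviated together from their group means (correlations across genes of 0.635, 0.527 and 0.272, against -0.573 to 0.0843 for different numbers), so the numbers pair the samples, and blocked values or counts are given beside calls they change. The p-values measure only the spread between samples of separate sorts. Blocked fits with a number left out hold few arrays, and their p-values rest mostly on a variance shared over genes. The number of arrays limits the precision. Simulated arrays with known changes were used to test the code. The members, gene lists and the rule for named genes (all members; of each pathway list, up to 4 genes past the threshold in either fit or else the smallest p; the 3 nearest genes; up to 3 markers a list) were chosen with earlier results of these data known. Socs3, Ptpn11, Il27, Ebi3, Cd160, Cd74, Cx3cr1, Itgam, Mertk, Cd3e and markers named for lying below background stand outside that rule. Alternatives covered background correction, normalization, filtering, probe choice, variance model, array weights and leaving out arrays.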

Additional observations from a re-analysis of the deposited data

How the results depend on the processing

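With the replicate block, 453 genes were higher and 515 lower in place of 62 and 85, and 2 and 1 of the tested members in place of 1 and 0. The blocked fit called 486 and 408 genes without number 1, 57 and 87 without number 2, and 681 and 550 without number 3. These fits have fewer arrays and lean on a variance shared over genes, so a larger count there is no firmer result. The value table with the block gave 383 and 438, and array weights, whose estimate did not converge fully, 584 and 744. With a single array left out, without a block, 0 to 28 genes were higher and 0 to 48 lower, and 0 to 1 members higher. The 0 came without Kit+ 3 (1303 genes at an unadjusted p under 0.05 in limma). Median centring, and raw signal without normalization, called 0 genes and 0 members in limma (655 and 350 genes, and 1 member each, at an unadjusted p under 0.05). The raw setting moved the median of all genes to -0.14. Array weights and the value table with the block called 1 member lower, as did the blocked fits without number 1 or number 3, and array weights 2 higher. The blocked value changed no call of a member other than Il27ra and Csf2ra. The cause of these shifts was not tested, beyond the fewer arrays in some fits. The share of higher calls, 42.2% as reported, was 54.4%, 39.6% and 55.3% in the blocked fits without number 1, 2 and 3.

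Directions of Osmr, Il27ra, Osm and Csf2ra held in all 21 alternatives. For Osmr, Il27ra and Csf2ra, whose normalized groups did not overlap, leaving out arrays could not have reversed them. Differences near 0 changed sign. Lifr lay between -0.14 and 0.25 with an array left out, at -0.06 in the blocked fit without number 1, and at -0.10 on raw signal. Il6ra lay between -0.02 and 0.16 with an array left out, at -0.10 on raw signal and at -0.05 with array weights. Lif lay between -0.02 and 0.16 with an array left out and at -0.09 on raw signal. Il31ra lay between -0.24 and 0.02 with an array left out, at 0.17 in the blocked fit without number 2 and at 0.11 with array weights. Against the 99th percentile of the receptor probes, 0 member probes in place of 2 exceeded it on every Kit- array, and against their median 8 on every Kit- and 7 on every Kit+ array. The signal of most members lies at background, which limits what these arrays can show of them.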
